A study of Homo sapiens with 18 samples.

Results

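The subunits of the oxidative phosphorylation machinery were followed through the blood differentiation of human embryonic stem cells (hESCs) with and without a mutation in USB1. The rule for members used gene symbols and annotation: the 13 mRNAs of mitochondrial DNA whose symbols begin with MT-ND, MT-CO or MT-ATP or read MT-CYB, and the 90 nuclear protein-coding genes whose symbols begin with NDUFA, NDUFB, NDUFC, NDUFS, NDUFV, UQCR, COX4 to COX8 or ATP5, or are SDHA to SDHD. Assembly factors (NDUFAF, SDHAF) and pseudogenes were left out. This gave 103 of the 35168 genes measured. The nuclear set holds 38 subunits of complex I, 4 of complex II, 9 of complex III, 19 of complex IV and 20 of complex V.

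RNA was sequenced from H1, an established hESC line, at D0 (undifferentiated hESCs), D16 (hematopoietic progenitors) and D30 (mature blood cells), with 3 WT and 3 USB1 mutant libraries a day and 18 in all. The WT groups, labelled Control, carry unedited USB1, a 3′ to 5′ RNA exonuclease. The mutant groups carry a deletion of 1 base, an A, in USB1, made by CRISPR/Cas9 and picked as colonies, so that the mutant libraries stand for an edited line and not for donors. Both genotypes went through the same serum-free differentiation, and each comparison asks how the mutation or the day goes with the mRNA of these subunits.

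Oxidative phosphorylation makes ATP from the oxidation of nutrients. Complex I (NADH dehydrogenase) and complex II (succinate dehydrogenase) pass electrons to ubiquinone, complex III passes them to cytochrome c, complex IV (cytochrome c oxidase) passes them to oxygen, and complex V (ATP synthase) uses the proton gradient so built to make ATP. Mitochondrial DNA encodes a few core subunits of complexes I, III, IV and V and is transcribed as long polycistronic RNAs, whereas the nuclear genes, all of complex II among them, are transcribed one by one and their proteins imported. Pluripotent stem cells are known to rely largely on glycolysis, blood progenitors and maturing blood cells to change their mitochondrial content, and mature red cells to lose their mitochondria.

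The libraries held 4125102 to 19368903 expected counts, and mutant D30 replicate 3 held the fewest. No label names separate cultures for the replicates, and the p-values therefore reflect only how far these libraries differ, which may be technical. USB1 mRNA did not pass the test on any day: mutant against WT, it stood at 0.11 ± 0.09 on the log2 scale at D0 (adjusted p = 0.623), −0.09 ± 0.14 at D16 (adjusted p = 0.668) and −0.24 ± 0.19 at D30 (adjusted p = 0.432). A 1-base deletion need not change the amount of an mRNA, so these levels do not check the edit. The 5 pluripotency markers summed to between 3571 and 4146 CPM (counts scaled to library size by TMM) at D0. Later they summed to at most 86.6 CPM. The 5 progenitor markers were CD34, PTPRC, SPN, KIT and MYB. They summed to between 1659 and 2081 CPM at D16 and between 1146 and 1570 CPM at D30. The D30 sum does not follow CD34 or MYB. CD34 was at 74.2 to 169.6 CPM at D16 and 7.46 to 18.9 CPM at D30. MYB was at 196.2 to 375.6 CPM and 48.6 to 96.2 CPM. At D30 PTPRC stood at 242 to 718 CPM and SPN at 420 to 709 CPM. KIT stood at 10.4 to 40.5 CPM in WT D30 and 228 to 599 CPM in mutant D30 libraries. Markers of several blood cell types differed between genotypes within a day. The D16 population is described by the study as CD34+/CD45+. At D16 the 6 eosinophil, basophil and mast cell markers summed to between 32044 and 58745 CPM in WT and between 6699 and 10447 CPM in mutant libraries (4 of 6 lower), the 5 megakaryocyte markers to between 829 and 880 CPM and between 1238 and 1393 CPM (4 of 5 higher), and 3 of 6 monocyte and macrophage markers were higher and 1 lower. At D30 the 7 erythroid markers summed to between 10267 and 13733 CPM in WT and between 40265 and 62347 CPM in mutant libraries (6 of 7 higher), and the 6 monocyte and macrophage markers to between 3079 and 3765 CPM and between 1403 and 2277 CPM (4 of 6 lower), while the granulocyte markers summed to between 231 and 738 CPM and between 50.1 and 201 CPM (4 of the 6 tested lower). No marker of the blood lists was at 0 in every library of a D16 or D30 group. Ribosomal RNA-like transcripts took 4.68 to 4.78% of TPM in WT and 5.23 to 9.17% in mutant D0 libraries, 1.01 to 2.04% and 2.78 to 3.61% at D16, and overlapped at D30. The part of these markers and transcripts in the results below was not tested, and in bulk RNA fewer cells of a type and less RNA per cell cannot be told apart.

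The share of all counts in the 13 mitochondrial mRNAs was on average higher at D16 than at D0 in both genotypes, and the share in the 90 nuclear mRNAs separated the genotypes at D16 and D30. Mitochondrial mRNAs took 1.53% ± 0.114 (SD, n = 3) of counts in WT and 1.76% ± 0.260 in mutant libraries at D0, 2.51% ± 0.494 and 2.28% ± 0.326 at D16, and 2.15% ± 0.608 and 1.65% ± 0.967 at D30. The D30 groups were uneven. The WT D30 libraries were at 2.51, 1.44 and 2.49%, and the mutant D30 libraries at 0.848, 1.37 and 2.72%, so that 1 library of each genotype stood apart and the groups overlapped.

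The nuclear subunits took 0.577% ± 0.0569 of counts in WT and 0.618% ± 0.0304 in mutant libraries at D0, and the groups overlapped. At D16 the WT libraries were at 0.574, 0.606 and 0.722% and the mutant libraries at 0.788, 0.808 and 0.766%, all above WT. At D30 the order was turned: WT libraries were at 0.557, 0.509 and 0.550% and mutant libraries at 0.406, 0.501 and 0.492%, all below WT. Globin mRNAs, which dilute the share of all other genes, took 1.31 to 1.73% of counts in WT D30 and 5.41 to 8.83% in mutant D30 libraries, and their part in the D30 shares was not tested. Shares are sums over the members and carry no test.

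**Figure D1:**
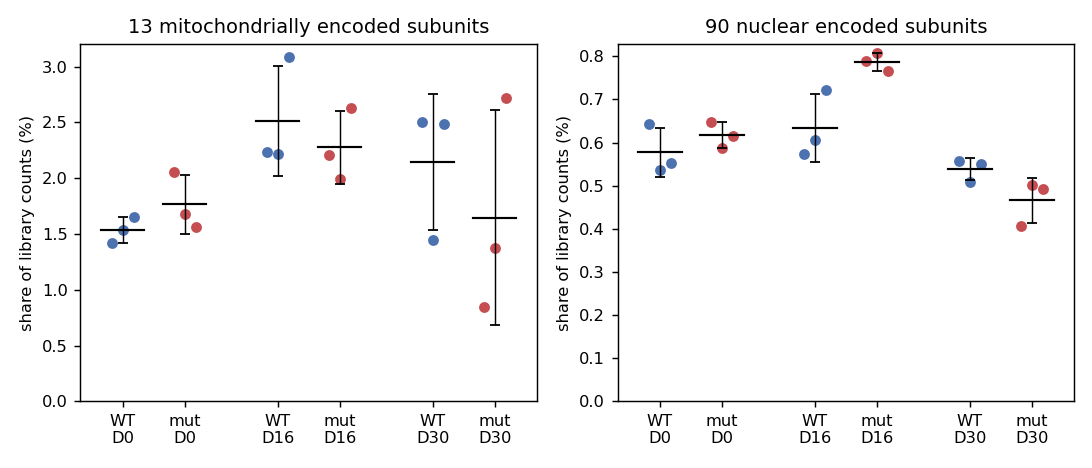
Share of library counts (%, vertical axis) in the 13 mitochondrial mRNAs (left) and the 90 nuclear subunits (right) by genotype and day; points are libraries, bars the mean and SD of 3. The nuclear share is higher in all 3 mutant than in all 3 WT libraries at D16 (0.766 to 0.808% against 0.574 to 0.722%) and lower at D30, while the mitochondrial groups overlap at D30.

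The mitochondrial mRNAs lie head to tail on chrM (16569 bases), and 12 of them are read from the same strand; MT-ND6 alone is read from the other strand. A few neighbours overlap, and reads within the shared bases fit both genes of a pair. MT-ATP8 (chrM:8366-8572) and MT-ATP6 (chrM:8527-9207) share 46 bases, and MT-ND4L (chrM:10470-10766) and MT-ND4 (chrM:10760-12137) share 7, each pair being carried on 1 mRNA, and MT-ATP6 and MT-CO3 share 1. The windows below, from the GRCh38 reference and the + strand, show where the second reading frame of each pair begins and the first ends, with the start or stop codon in capitals.
MT-ATP6 start, chrM:8514-8543: cctgagaaccaaaATGaacgaaaatctgtt
MT-ATP8 stop, chrM:8557-8586: gcccccacaatccTAGgcctacccgccgca
MT-ND4 start, chrM:10747-10776: taaacctactccaATGctaaaactaatcgt
MT-ND4L stop, chrM:10751-10780: cctactccaatgcTAAaactaatcgtccca

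Levels differed widely among the 13 although they come from few primary transcripts. Per length, on the deposited TPM scale (counts corrected for transcript length and library size), MT-CO1, the catalytic subunit of complex IV, stood at 4099 ± 177 TPM in WT D0, 7149 ± 986 in WT D16 and 8650 ± 2112 in WT D30. Whether the counting used strand is not stated, so reads of the opposite strand may be among those of MT-ND6. MT-ND6, the complex I subunit of the other strand, was the lowest of the 13 in every group, with 469 ± 63.6, 255 ± 14.9 and 159 ± 60.0 TPM in the same groups. MT-ND4L, one of the shortest, had the highest WT mean TPM at D0 and D16 (7487 ± 1088 and 8878 ± 2427 TPM). That rank depends on the average effective length used for it, 70.9 bases against 1100 for MT-ND4, with which it shares an mRNA. In counts, MT-ND4L had a mean of 434 CPM over all libraries and MT-ND4 3833 CPM. The 403 annotated pseudogenes named after these mRNAs took at most 0.0271% of counts in any library, and how many reads of such nuclear copies were assigned to the mitochondrial genes was not tested.

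From D0 to D16 in WT cells, 8 of the 13 mitochondrial mRNAs rose and 0 fell (median log2 change 0.87), where 37% of all genes tested rose and 39.3% fell in that comparison. Calls are at an adjusted p under 0.1 by edgeR's quasi-likelihood test with Benjamini-Hochberg adjustment over all genes tested, here and below, and ± after a log2 value is its standard error. MT-CO1 was at 3699, 3177 and 3392 CPM in the WT D0 libraries and at 6842, 7854 and 9744 CPM at D16. The 2 groups did not overlap, and the log2 change was 1.25 ± 0.29 (adjusted p = 0.000785). MT-ND1, a core subunit of the membrane arm of complex I, changed most (1.35 ± 0.37, adjusted p = 0.003), from 715, 1063 and 1263 to 2617, 2166 and 2961 CPM. MT-ND2 (1.08), MT-ND5 (1.01), MT-CO2 (0.94), MT-CO3 (0.89), MT-CYB (0.87) and MT-ATP8 (0.83) were the other calls. The calls of MT-CYB and MT-ATP8 were lost without WT D0 replicate 1 or WT D16 replicate 3, and that of MT-ATP8 also without WT D0 replicate 2, with adjusted p up to 0.179. MT-ATP6, the proton channel subunit of complex V that shares its mRNA with MT-ATP8, stood at 0.20 ± 0.34 (adjusted p = 0.608). MT-ND6 went the other way, from 89.0, 62.2 and 74.8 to 52.8, 61.0 and 60.1 CPM, without passing the test (−0.38 ± 0.26, adjusted p = 0.199).

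In the mutant, 3 of 13 rose from D0 to D16 and 0 fell (median 0.32), beside 36.9% and 36% of all genes: MT-ND1 (0.96 ± 0.36, adjusted p = 0.0257), MT-CO1 (0.71 ± 0.29, adjusted p = 0.0355) and MT-ND5 (0.77 ± 0.31, adjusted p = 0.0324). The change was smaller in the mutant for 12 of the 13 (median difference −0.51 on the log2 scale). No difference between the genotypes' changes was called for any of the 13 (0 higher and 0 lower, 0 at an unadjusted p under 0.05, 0 by DESeq2 and limma), where 3.87% and 3.75% of all genes were called higher and lower.

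Between D16 and D30 the composition of the mitochondrial set changed. In WT cells 5 of 13 fell and 0 rose (median −0.31), beside 35.1% and 31.6% of all genes, and 4 of the 5 encode complex I subunits. MT-ND2 went from 2826, 2767 and 3381 CPM to 1381, 704 and 1340.4 CPM, with no overlap (−1.39 ± 0.38, adjusted p = 0.00459). MT-ND3 fell from 389, 438 and 523 to 183, 59.2 and 208 CPM (−1.59 ± 0.48, adjusted p = 0.00792). MT-ND6 (−0.84 ± 0.26, adjusted p = 0.0106), MT-ND1 (−0.94 ± 0.36, adjusted p = 0.0315) and MT-CO3 (−0.65 ± 0.31, adjusted p = 0.0822) were the others. Without WT D30 replicate 2, the WT library with the lowest mitochondrial share, 3 were called, where 4906 of 17157 genes were higher and 5383 lower. The call of MT-ND1 was then lost (adjusted p = 0.135). So was that of MT-CO3, which was also lost without WT D16 replicate 2 or 3 (adjusted p up to 0.304).

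In the mutant 4 of 13 fell from D16 to D30 and 0 rose (median −0.11), beside 35.1% and 34.7% of all genes: MT-ND3 (−1.64 ± 0.48, adjusted p = 0.0063), MT-ND6 (−1.19 ± 0.27, adjusted p = 0.000975), MT-ND2 (−0.98 ± 0.38, adjusted p = 0.0326) and MT-CO3 (−0.96 ± 0.31, adjusted p = 0.0126). The call of MT-ND2 was lost without mutant D30 replicate 1 or 2 (adjusted p up to 0.152).

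In WT, MT-CO1, MT-CO2 and both ATP synthase mRNAs gave small positive values over the same step, none called. MT-CO1 stood at 9118, 5849.7 and 10402 CPM in WT D30 (0.05 ± 0.28, adjusted p = 0.891), MT-CO2 at 0.20 ± 0.31 and MT-ATP6 at 0.29 ± 0.34. As a share of the counts of all 13, MT-CO1 went from 24.5% ± 3.4 at WT D0 to 29.9% ± 2.06 at WT D16 and 38.8% ± 2.04 at WT D30, and in the mutant from 25.1% ± 3.69 to 30.5% ± 0.660 and 39.0% ± 5.64. MT-ND2 took 11.1% ± 0.757 in WT D16 and 5.15% ± 0.337 in WT D30, and 9.12% ± 1.07 and 5.43% ± 1.09 in the mutant. The counts of MT-ND1 and MT-ND2 per count of MT-CO1 and MT-CO2 were thus 0.572 to 0.718 in WT D16 and 0.245 to 0.289 in WT D30, with no overlap. In the mutant they were 0.481 to 0.607 and 0.243 to 0.421, also with no overlap. These ratios are descriptions of within-library composition, in which the total mitochondrial share cancels.

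Between genotypes, MT-ND2 at D16 was the 1 mitochondrial mRNA called on any day in the main fits. It was at 2826, 2767 and 3381 CPM in WT and at 1936, 2034 and 2122 CPM in mutant libraries, with no overlap (−0.60 ± 0.14, adjusted p = 0.0153). The call stood without each library in turn and was lost in the fit over 18 libraries (adjusted p = 0.331). All 13 had negative values at D16 (median −0.35, from −0.60 to −0.14). MT-ND1 was at 1998, 2090.4 and 2000.4 CPM in mutant libraries against 2617, 2166 and 2961 CPM in WT (adjusted p = 0.101). With 1 of 13 lower and 0 higher, the set is read against 15.3% lower and 13.1% higher of all genes at D16. Because the 13 mRNAs share their transcripts and their libraries, their common sign is not 13 separate observations.

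At D0 and D30 no mitochondrial mRNA was called in the main fits. With replicate number as a block, a fit given in the last paragraph, some were called higher at D0. At D0 the median was 0.13, with 11 positive values and 3 of 13 at an unadjusted p under 0.05 (0 by DESeq2 or limma), beside 1.07% higher and 1.87% lower of all genes. At D30 the median was −0.33, with 12 negative values, 0 of 13 at an unadjusted p under 0.05 and 0 by DESeq2 or limma, beside 10.8% and 9.75% of all genes. The D30 result rests on mutant replicate 3. MT-ND4, for example, was at 1174, 1942 and 5302 CPM in the mutant D30 libraries and at 4363, 2154 and 4368 CPM in WT. Without that library 5 of 13 were lower and the median was −1.04, where 1232 of 14631 genes were higher and 914 lower. Without WT D30 replicate 2, 1 of 13 was lower, where 824 of 14592 genes were higher and 660 lower.

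**Figure D2:**
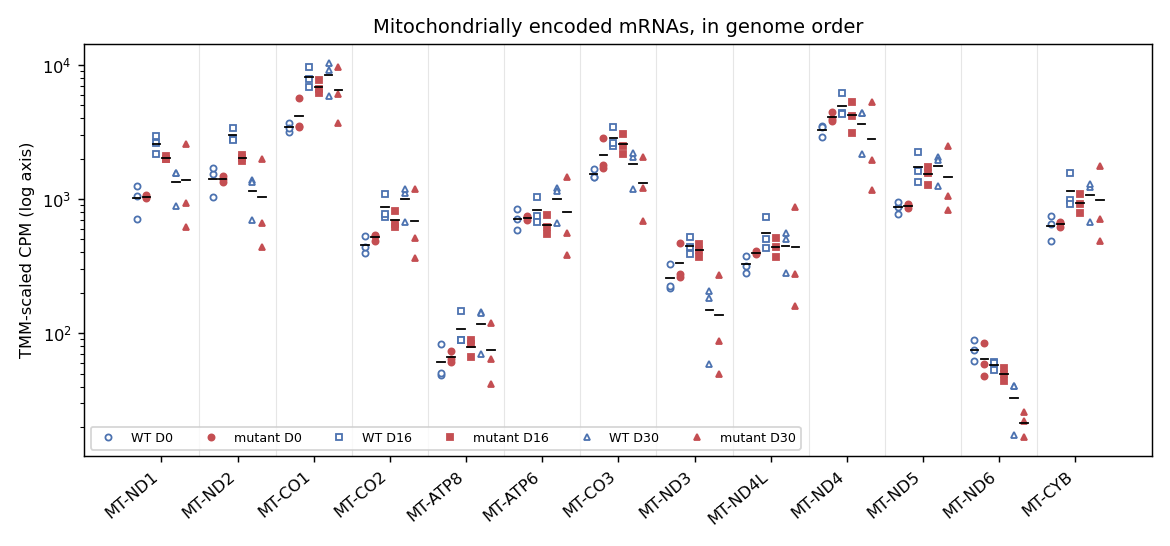
Level of the 13 mitochondrial mRNAs in genome order (TMM-scaled CPM, log axis) for the 6 groups; points are libraries and dashes group means of 3. MT-CO1 has the highest CPM in each D16 and D30 library, MT-ND2 lies at 2767 to 3381 CPM in WT D16 and 704 to 1381 CPM in WT D30, and the mutant D30 points are spread widely for most mRNAs.

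Among nuclear subunits, a filter on low counts left 85 of 90 for changes between days, 83 for D0 and 82 for each of D16 and D30. COX4I2, COX6A2, COX7B2, COX8C and ATP5MGL passed in no comparison. In WT cells 50 of 85 rose from D0 to D16 and 11 fell (median 0.40, median of all genes −0.04), beside 37% and 39.3% of all genes. Rises were found in each complex: 22 of 38 for complex I, 2 of 4 for complex II, 5 of 9 for complex III, 10 of 15 for complex IV and 11 of 19 for complex V. In the mutant 51 rose and 7 fell (median 0.46), beside 36.9% and 36% of all genes.

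ATP5MC2, 1 of 3 genes for the same mature c-ring subunit of the ATP synthase rotor, had the largest WT rise among members with a mean of at least 1 CPM. It was at 45.8, 39.5 and 37.3 CPM at D0 and at 105, 151 and 133 CPM at D16 (1.67 ± 0.14, adjusted p = 3.84e-09), and in the mutant its change was 1.24. NDUFB3 (1.49) and NDUFA1 (1.35), accessory subunits of the membrane arm of complex I, NDUFV2 (1.31), a core iron-sulfur subunit of its NADH-oxidizing end, COX8A (1.29), a small complex IV subunit, and ATP5F1E (1.28), the epsilon subunit of the ATP synthase stalk, followed. ATP5F1E stood at 45.4, 36.6 and 42.4 CPM at D0 and at 91.2, 104 and 106 CPM at D16.

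Falls in WT were led by the readthrough gene ATP5MF-PTCD1 (−1.53), whose counts cannot be told apart with certainty from those of its parts. NDUFAB1, which doubles as the mitochondrial acyl carrier protein, fell from 74.9, 63.0 and 67.4 to 33.9, 32.6 and 48.6 CPM (−0.83 ± 0.18, adjusted p = 0.000387). NDUFS8, a core iron-sulfur subunit next to the ubiquinone site of complex I, fell from 42.0, 39.3 and 47.0 to 26.8, 24.3 and 26.3 CPM (−0.73 ± 0.12, adjusted p = 2.93e-05). Both groups were free of overlap. NDUFA3 (−0.75), ATP5MK (−0.63) and NDUFS6 (−0.57) were also lower, the call of ATP5MK being lost with transcript lengths as offsets (adjusted p = 0.203).

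From D16 to D30 the direction turned. In WT cells 43 of 85 nuclear subunits fell and 9 rose (median −0.39), beside 35.1% and 31.6% of all genes. Complex V gave 13 lower and 1 higher of 19, complex I 17 and 3 of 38, complex IV 8 and 1 of 15, complex III 4 and 2 of 9, and complex II 1 lower and 2 higher of 4. COX7C, a small subunit of complex IV, went from 73.1, 139 and 93.2 CPM to 34.6, 30.0 and 31.1 CPM (−1.68 ± 0.22, adjusted p = 3.6e-06). ATP5MC2 returned to 48.9, 41.6 and 41.5 CPM (−1.56 ± 0.14, adjusted p = 2.65e-08), close to its D0 values. The complex I subunits NDUFA12 (−1.40), NDUFB11 (−1.29) and NDUFS4 (−1.28) also fell, NDUFS4 from 28.8, 30.8 and 32.0 to 13.7, 12.4 and 11.7 CPM. The readthrough NDUFC2-KCTD14 (−1.60) had at most 5.0 CPM in any of these libraries. ATP5IF1, the inhibitor that stops complex V from running in reverse, fell by 0.57 ± 0.17 (adjusted p = 0.00644).

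The 9 that rose in WT over this step included core subunits of complexes I to III. NDUFS8 went from 26.8, 24.3 and 26.3 to 55.6, 65.5 and 55.3 CPM (1.19 ± 0.12, adjusted p = 1.65e-07). SDHA, the flavoprotein of complex II, went from 113, 99.3 and 120.0 to 165, 163 and 155 CPM (0.54 ± 0.11, adjusted p = 0.000446), and SDHB, its iron-sulfur partner, by 0.54 ± 0.16 (adjusted p = 0.00763). NDUFS1, the largest core subunit of complex I, rose by 0.48 ± 0.12 (adjusted p = 0.002). COX6B2, an isoform known from testis, rose from 1.92, 1.76 and 1.77 to 6.11, 4.76 and 4.78 CPM (1.52 ± 0.29). ATP5MF-PTCD1 rose by 0.95 ± 0.28. NDUFA9, an accessory subunit of complex I, had 0.57 ± 0.09 in counts (adjusted p = 3.86e-05), yet the value was −0.64 with transcript lengths as offsets. Per length it stood at 57.2 ± 11.4 TPM in WT D16 and 44.3 ± 3.16 TPM in WT D30, so its direction depends on the transcript forms assigned to it. Across 83 tested nuclear subunits, the 2 readthrough genes left out, this D16 to D30 change was related to mean transcript length with Spearman's rho 0.37 (Pearson's r 0.34), a description over genes that share their libraries. The shortest genes, up to 378 bases, gave 0 higher and 18 lower of 28, and the longest, from 731 bases, 6 and 10 of 28. The relation was weaker in the mutant over the same step (rho 0.20), where the shortest gave 1 higher and 23 lower of 28 and the longest 3 and 19 of 28.

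In the mutant 64 of 85 fell from D16 to D30 and 6 rose (median −0.66), beside 35.1% and 34.7% of all genes. Complex V gave 15 lower of 19, complex I 28 of 38, complex IV 12 of 15, complex III 7 of 9 and complex II 2 of 4. The c-ring gene ATP5MC1 had the largest fall among single-gene loci with a mean of at least 1 CPM, from 40.1, 37.6 and 44.5 to 9.22, 12.9 and 13.6 CPM (−1.79 ± 0.23, adjusted p = 2.75e-06). NDUFS4 (−1.74), NDUFA12 (−1.70), ATP5PO (−1.53), which joins the peripheral stalk to the ATP synthase head, and ATP5MJ (−1.50) followed. The 6 that rose were ATP5MF-PTCD1 (1.30 ± 0.28), COX6B2 (1.24 ± 0.28), NDUFS8 (0.67 ± 0.12), UQCRHL, NDUFA3 and NDUFA9. The call of NDUFA3 (0.75 ± 0.30) was lost without mutant D16 replicate 2 or mutant D30 replicate 3 and with length offsets (adjusted p up to 0.554), and NDUFA9 (0.60 ± 0.09) was at −1.08 with length offsets.

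At D0 no nuclear subunit was called between genotypes in the main fit (0 of 83, beside 1.07% higher and 1.87% lower of all genes). At an unadjusted p under 0.05 there were 17 of 83, beside 2195 of 14719 genes. DESeq2 called 1, beside 251 genes higher and 349 lower, and limma 0, beside 157 and 270. With replicate number as a block, a fit given in the last paragraph, some were called higher, where 889 of 14719 genes were higher and 829 lower. The values leaned one way: 70 of 83 were positive, with a median of 0.12 against 0.00 for all genes. The quartiles of the nuclear values were 0.04 and 0.23. UQCRC1, a core subunit of complex III named as a central subunit and not as typical of the set, was at 193, 186 and 209 CPM in WT. In mutant libraries it was at 235, 213 and 235 CPM.

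At D16, 11 of 82 nuclear subunits were higher in the mutant and 2 lower (median 0.19 against 0.01 for all genes, 56 positive), beside 13.1% and 15.3% of all genes, so the share called higher was near that of all genes. They were spread over the machinery: 4 of 38 higher for complex I, 1 of 4 for complex II, 1 of 8 for complex III, 1 of 13 for complex IV and 4 of 19 for complex V. NDUFS8 was at 26.8, 24.3 and 26.3 CPM in WT and at 37.6, 37.5 and 40.9 CPM in mutant libraries, with no overlap (0.55 ± 0.13, adjusted p = 0.0145). SDHD, a membrane anchor of complex II, was at 56.6, 54.5 and 68.7 CPM against 97.0, 86.4 and 76.2 CPM (0.49 ± 0.14, adjusted p = 0.0313). UQCRFS1, the Rieske iron-sulfur protein of complex III, was at 70.2, 66.1 and 83.2 CPM against 102, 96.8 and 113 CPM (0.47 ± 0.13, adjusted p = 0.028). In each of these the mutant libraries all lay above WT.

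Complex V contributed ATP5F1C, the gamma subunit of the rotor (0.48 ± 0.14, adjusted p = 0.0324), ATP5PB, the b subunit of the peripheral stalk (0.48 ± 0.13, adjusted p = 0.026), ATP5MC3 and ATP5MJ. ATP5PB was at 133, 147 and 174 CPM in WT and at 227, 215 and 208 CPM in the mutant. The remaining higher calls were NDUFAB1 (0.52 ± 0.16, adjusted p = 0.0423), NDUFA4 (0.48 ± 0.16, adjusted p = 0.0548), now counted with complex IV, NDUFS5 and NDUFS1 (0.36 ± 0.13, adjusted p = 0.0758). The other central subunits had positive values without a call, among them SDHA (0.32 ± 0.13, adjusted p = 0.124) and ATP5F1B, the catalytic beta subunit (0.34 ± 0.15, adjusted p = 0.132).

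SDHC, the other membrane anchor of complex II (GRCh38, chr1:161314381-161363206, + strand), went against the rest of its complex. It was at 124, 123 and 118 CPM in WT D16 and at 88.9, 86.9 and 80.3 CPM in mutant D16 libraries, with no overlap (−0.55 ± 0.12, adjusted p = 0.00789). It lies on the long arm of chromosome 1, where the tested genes as a whole were lower in the mutant: the median over 686 genes of 1q was −0.49 at D16, with 352 called lower and 26 higher, and −0.19 at D0 and −0.31 at D30. SDHC was at 0.02 ± 0.12 at D0 and −0.42 ± 0.16 at D30, neither called (adjusted p = 0.976 and 0.127). The part of the arm in these values was not tested. NDUFV2 was the second lower call, at 163, 162 and 133 CPM in WT and 122, 126 and 113 CPM in mutant D16 libraries (−0.38 ± 0.13, adjusted p = 0.0633).

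The D16 calls depend on which libraries enter. Without WT D16 replicate 3, the WT library with the highest nuclear share, 33 were higher and 2 lower, while over all 14709 genes then tested 2871 were higher and 2907 lower. Without WT replicate 1 the counts were 2 and 2, where 1009 and 1511 of 14898 genes were called. Without WT replicate 2 they were 1 and 1, where 997 and 1453 of 14656 genes were called. Without mutant replicate 1 they were 3 higher and 1 lower (1259 and 1618 of 14886 genes). Without mutant replicate 2 they were 5 and 1 (1299 and 1692 of 14835 genes). Without mutant replicate 3 they were 7 and 1 (1178 and 1581 of 14696 genes). NDUFS8 and SDHC kept their calls under each alternative run (adjusted p up to 0.0723 and 0.0784). SDHD and ATP5F1C lost theirs without WT 1, WT 2 or mutant 1 (up to 0.133 and 0.126), ATP5PB without WT 1 or WT 2 (up to 0.113), UQCRFS1 without WT 2 or mutant 3 (up to 0.128) and NDUFAB1 without WT 1, WT 2, mutant 1 or mutant 2 (up to 0.169). NDUFA4 lost its call without WT 1, WT 2, mutant 1 or mutant 2 (up to 0.196), and NDUFS1, NDUFS5, NDUFV2, ATP5MC3 and ATP5MJ without each of these or mutant 3 (up to 0.309).

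At D30, 0 of 82 nuclear subunits were higher in the mutant and 2 were lower (median −0.13 against −0.01 for all genes, 59 negative), beside 10.8% and 9.75% of all genes. UQCRC1 was at 199.8, 198 and 187 CPM in WT and at 132, 133 and 123 CPM in mutant D30 libraries, well apart (−0.59 ± 0.13, adjusted p = 0.0204), and kept this call under each alternative run (up to 0.0815). NDUFS3, a core subunit of the matrix arm of complex I, was at 59.2, 55.9 and 64.0 CPM against 37.1, 46.7 and 42.6 CPM (−0.50 ± 0.15, adjusted p = 0.0582), and its call was lost without any WT library, without mutant replicate 3 or with length offsets (up to 0.197). In the fit over 18 libraries 7 were lower and 1 higher, where 2353 of 16829 genes were lower and 2539 higher. The 4 subunits of complex II all had negative values, from −0.42 to −0.18, and none was called.

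**Figure D3:**
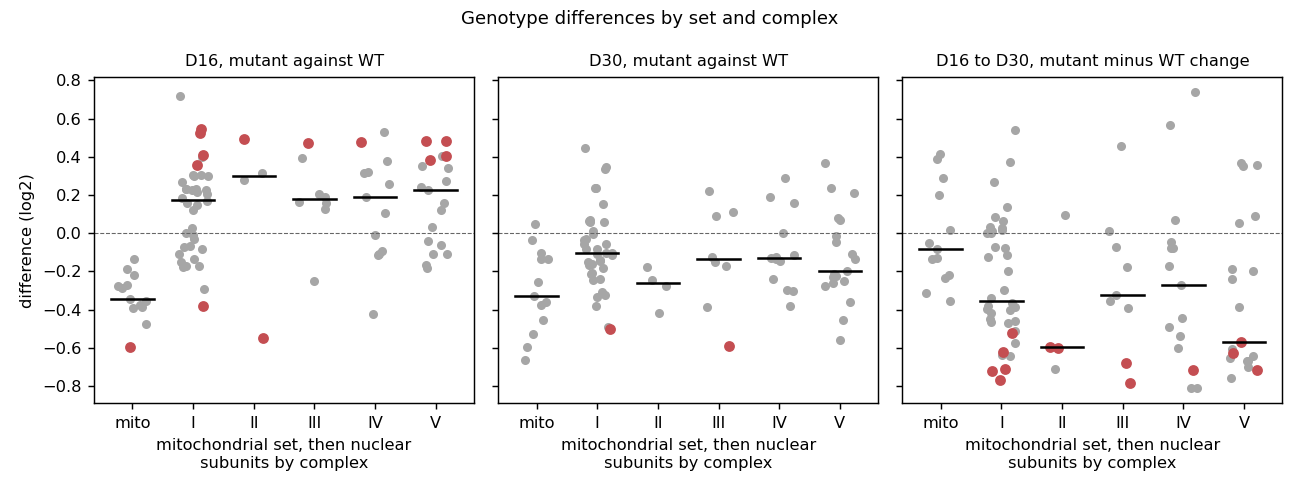
Log2 difference (vertical axis) of each tested member at D16 and at D30 (mutant against WT) and in the change from D16 to D30 (mutant minus WT), for the mitochondrial set and for nuclear subunits by complex; red points passed an adjusted p under 0.1 and lines are medians. Nuclear medians are positive at D16 and negative at D30, and all 13 red points of the right panel lie below 0.

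The change from D16 to D30 itself differed between genotypes for 13 of 85 nuclear subunits, all with a more negative change in the mutant (0 higher, median −0.36), beside 10.2% lower and 10.3% higher of all genes. At an unadjusted p under 0.05 there were 27 of 85, beside 4841 of 16829 genes. DESeq2 called 17, beside 1856 genes lower, and limma 18, beside 1701 genes lower. They came from every complex: 5 of complex I (NDUFS1, NDUFS3, NDUFS8, NDUFAB1 and NDUFB2), 2 of complex II (SDHA and SDHB), 2 of complex III (UQCRC1 and UQCRFS1), 1 of complex IV (COX7B) and 3 of complex V (ATP5F1B, ATP5F1C and ATP5PO). These are the measured differences between the genotype effects of D16 and D30, which use the same libraries as the day comparisons above and are no second set of observations.

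UQCRC1 had the largest difference among the subunits called. In WT it went from 149, 139.8 and 192 CPM at D16 to 199.8, 198 and 187 CPM at D30, whereas in the mutant it went from 172, 182 and 195 CPM to 132, 133 and 123 CPM (difference of changes −0.78 ± 0.17, adjusted p = 0.00477). NDUFS1 was at 116, 116 and 144 CPM and then 179, 173 and 173 CPM in WT, and at 173, 153 and 168 CPM and then 134, 152 and 132 CPM in the mutant (−0.72 ± 0.17, adjusted p = 0.00886). For NDUFS3 the difference was −0.77 ± 0.22 (adjusted p = 0.0271). By their means, these core subunits of complexes I and III were higher in the mutant at D16 and lower at D30.

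In complex II, SDHA stayed at 134, 129 and 162 CPM and 140.0, 143 and 124 CPM in the mutant while it rose in WT (−0.60 ± 0.16, adjusted p = 0.0173), and SDHB had −0.59 ± 0.23 (adjusted p = 0.0894). UQCRFS1 (−0.68 ± 0.18, adjusted p = 0.0176) moved like UQCRC1. In complex V, ATP5F1B was at 536, 540.2 and 728 CPM and then 517, 477 and 537 CPM in WT, and at 756, 764 and 824 CPM and then 369, 475 and 444 CPM in the mutant (−0.63 ± 0.19, adjusted p = 0.0357). ATP5PO had −0.72 ± 0.22 (adjusted p = 0.0356) and ATP5F1C −0.57 ± 0.22 (adjusted p = 0.0989). COX7B (−0.72 ± 0.26, adjusted p = 0.0811), NDUFAB1 (−0.71 ± 0.26, adjusted p = 0.0737) and NDUFB2 (−0.62 ± 0.24, adjusted p = 0.0892) were higher in the mutant at D16 by their means, and lower at D30. NDUFS8 rose in both genotypes, but less in the mutant, from 37.6, 37.5 and 40.9 to 64.9, 54.7 and 65.0 CPM (−0.52 ± 0.17, adjusted p = 0.0464).

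UQCRC1, NDUFS1, NDUFS3, SDHA, UQCRFS1, ATP5F1B and ATP5PO kept the call under each alternative run (adjusted p up to 0.0933). The calls of NDUFB2, SDHB, COX7B, ATP5F1C and NDUFAB1 were lost without 1 of several libraries (up to 0.206), and that of NDUFS8 without mutant D16 replicate 3 or WT D30 replicate 2 (up to 0.122). Leaving out WT D16 replicate 3 gave 28 calls, where 1961 of 17180 genes were higher and 2266 lower. Leaving out mutant D30 replicate 2 gave 22, where 1874 of 17145 genes were higher and 2090 lower. Without WT D16 replicate 1 there were 8, where 1260 of 17200 genes were higher and 1176 lower. There were also 8 without WT D16 replicate 2 (1274 and 1320 of 17161 genes) or mutant D16 replicate 1 (1408 and 1374 of 17168). The same number came without WT D30 replicate 3 (1637 and 1611 of 17200). The mitochondrial set had 0 of 13 called for this contrast (median −0.08, 0 at an unadjusted p under 0.05, 0 by DESeq2 and limma). For the step from D0 to D16 the difference was called for NDUFS8 alone (0.54 ± 0.17, adjusted p = 0.0802, 1 higher and 0 lower of 85), beside 3.87% and 3.75% of all genes. This call was lost without any of the D0 libraries, without any of the D16 libraries but WT replicate 3, and under 4 other settings (up to 0.188).

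**Figure D4:**
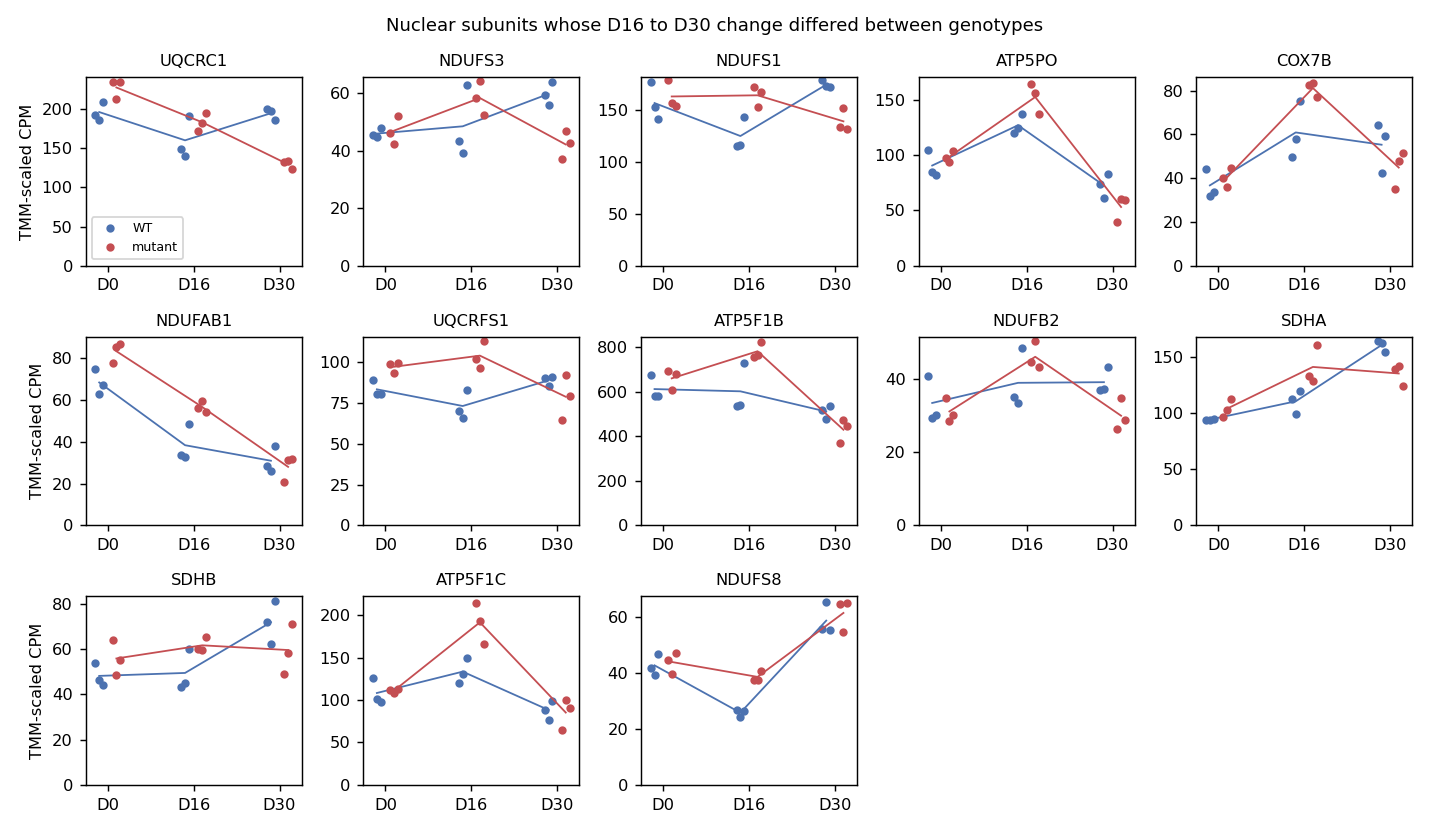
TMM-scaled CPM by day of the 13 nuclear subunits whose D16 to D30 change differed between genotypes, WT in blue and mutant in red; points are libraries and lines join the means of 3. UQCRC1 lies between 123 and 133 CPM in mutant D30 and between 187 and 199.8 CPM in WT D30, and NDUFS8 rises in both genotypes.

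The promoters of these 13 genes were looked at because nuclear respiratory genes are known to share binding motifs for NRF1, ETS-family factors such as GABPA, and YY1. RefSeq (GRCh38.p14) promoters of 300 bases, from 250 before to 50 after the annotated start, were at hand for 71 of the 90 nuclear members and for 12 of the 13 genes. The motif of NRF1, read on both strands and shown in capitals below, was in 17 of 71 members (23.9%) and in 8.64% of 15261 protein-coding promoters. CCGGAAG (ETS) was in 28.2% and 14.4%, and the YY1 motif in 5.63% and 1.41%. No match of one motif overlapped a match of another in the members. Of the 12 genes, 5 held the NRF1 motif, SDHA 4 times. The window around the first match of each is shown 5′ to 3′ on the gene's strand, with the motif in capitals and its first base counted from the start.
UQCRC1, chr3:48609674-48609703, − strand, −47: gtacggtactGCGCCTGCGCcgcgaccgcc
SDHA, chr5:218144-218173, + strand, −166: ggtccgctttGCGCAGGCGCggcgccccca
ATP5F1C, chr10:7788145-7788174, + strand, −22: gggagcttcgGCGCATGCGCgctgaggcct
UQCRFS1, chr19:29213163-29213192, − strand, −31: gcgcctcctcGCGCCTGCGCcgtggttgga
ATP5PO, chr21:33915809-33915838, − strand, −24: acgccaacgcGCGCGTGCGCccttgcgcgt
A match describes letters in a window and not binding, which these data do not measure.

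Subunits with tissue isoforms were represented mainly by their ubiquitous forms in all 6 groups. COX6B2, the isoform known from testis, had counts in all 18 libraries, with a mean of 3.48 CPM against 91.0 CPM for COX6B1. Its rise from D16 to D30 was called in both genotypes. On the TPM scale COX4I1 stood at 436 ± 29.3, 469 ± 23.3 and 518 ± 39.7 in WT at D0, D16 and D30 and at 426 ± 23.8, 473 ± 16.9 and 355 ± 67.1 in the mutant, while COX4I2, the hypoxia-responsive isoform, was at 0 in 15 of 18 libraries. COX6A1 stood between 462 ± 99.6 and 765 ± 28.5 TPM in group means, and the muscle isoform COX6A2 had counts in 1 library only. COX7B2 was at 0 in all 18, and COX8C had counts in 2. COX7A1, the muscle form of COX7A, was at 0.850, 1.14 and 2.06 CPM in WT D0 and at 0 in all 6 mutant libraries of D16 and D30, and COX7A2 stood at 199 ± 16.7 TPM in WT D0 and 146 ± 18 TPM in WT D30. NDUFA4L2, a hypoxia-responsive relative of NDUFA4, was at 2.16, 1.41 and 1.44 CPM in WT D0, at 0.601, 1.57 and 0.589 CPM in WT D16 and at 0.374, 0.207 and 0 CPM in WT D30.

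The 3 c-ring genes, whose mature proteins are identical, changed in their order. Per length in WT, ATP5MC3 stood at 211 ± 39.2 TPM, ATP5MC1 at 128 ± 16.5 and ATP5MC2 at 102 ± 17.6 at D0. At D16 ATP5MC2 was the highest (265 ± 42.2), with ATP5MC3 at 184 ± 32.0 and ATP5MC1 at 117 ± 33.6. At D30 ATP5MC3 was again the highest (166 ± 23.0), with ATP5MC2 at 81.0 ± 7.48 and ATP5MC1 at 63.4 ± 23.2, these last 2 within their spread. UQCRH, the hinge protein of complex III, stood at 753 ± 83.3 TPM in WT D0, the highest WT mean of the nuclear members that day, and at 439.6 ± 36.0 and 214 ± 29.0 TPM later, with a call for the second step (−1.13 ± 0.15, adjusted p = 3.11e-06). Its near copy UQCRHL stayed under 1 TPM in every group mean, and how reads were split between the copies is uncertain.

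The genes that build and feed the machinery were listed for comparison: 41 for mitochondrial gene expression, 78 for the mitochondrial ribosome, 54 assembly factors, 26 for glycolysis and lactate, 22 for the TCA cycle and 19 other respiratory carriers. At D16 the mitochondrial ribosome gave 25 higher and 2 lower of 77 tested (median 0.31) and mitochondrial gene expression 11 and 2 of 41 (median 0.28), beside the 13.1% and 15.3% of all genes. Assembly factors gave 4 and 2 of 53, other carriers 5 and 1 of 18, glycolysis and lactate 2 and 3 of 26, and the TCA cycle 2 and 2 of 22. LRPPRC, which stabilizes mitochondrial mRNAs, was higher (0.67 ± 0.16, adjusted p = 0.015), and so was MRPS26 of the small mitoribosomal subunit (1.44 ± 0.25, adjusted p = 0.00299). CS, citrate synthase, was lower (−0.82 ± 0.13, adjusted p = 0.00174) and IDH3B, a subunit of isocitrate dehydrogenase, higher (1.48 ± 0.17, adjusted p = 0.00046). HK3, the hexokinase of myeloid cells, was lower (−2.32 ± 0.20, adjusted p = 0.00012), in libraries with fewer granulocyte marker counts (4072 to 10969 CPM in WT and 2866 to 4411 CPM in mutant D16 libraries, 6 of 7 markers lower), whose part was not tested.

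At D30, beside 10.8% higher and 9.75% lower of all genes, these lists gave 0 higher and 1 lower of 40 for mitochondrial gene expression, 1 and 3 of 77 for the ribosome, 0 and 3 of 53 for assembly factors, 3 and 4 of 26 for glycolysis and lactate, 1 and 6 of 22 for the TCA cycle and 0 and 2 of 18 for other carriers. FH, fumarate hydratase, was lower (−0.72 ± 0.18, adjusted p = 0.0372). SLC2A1, the glucose transporter of red cells and their precursors, was higher (1.81 ± 0.28, adjusted p = 0.00647). These libraries held more erythroid marker counts, whose part was not tested. For the difference of the D16 to D30 changes, beside 10.3% higher and 10.2% lower of all genes, the ribosome gave 1 higher and 14 lower of 77, mitochondrial gene expression 2 and 8 of 41, the TCA cycle 1 and 8 of 22, assembly factors 2 and 7 of 53, glycolysis and lactate 3 and 3 of 26 and other carriers 0 and 1 of 19. TFAM, which packages and transcribes mitochondrial DNA, had −0.93 ± 0.25 (adjusted p = 0.02), and NDUFAF2, an assembly factor of complex I, −1.58 ± 0.33 (adjusted p = 0.0046). From D0 to D16 in WT, beside 37% higher and 39.3% lower of all genes, the ribosome gave 8 higher and 43 lower of 77 and mitochondrial gene expression 4 and 22 of 41, among them POLRMT, the mitochondrial RNA polymerase (−2.02 ± 0.21, adjusted p = 1.2e-07). At D0 between genotypes, these lists gave 4 calls in all: PDK1 lower (−0.68 ± 0.17, adjusted p = 0.0971) and IDH3B (0.55 ± 0.08, adjusted p = 0.0147), SLC25A6 and MRPL10 higher.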

How the data were processed

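Bulk RNA was depleted of ribosomal RNA with RiboCop and made into NextFlex directional libraries. Per the labels, the authors trimmed reads with Trimmomatic 0.36 and quantified them with Salmon 0.13.1 against the Ensembl 99 human transcriptome (GRCh38); whether Salmon used the strand is not given in the sources used here. The deposited tables hold, for each library, the expected counts that the authors estimated per gene, their TPM values and average effective transcript lengths. They also hold the authors' own comparisons (fold changes and p-values), which were not used.

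Expected counts were rounded and tested with edgeR 4.0.16 (R 4.3.3): filterByExpr, TMM scaling, glmQLFit and glmQLFTest, with Benjamini-Hochberg adjustment over all genes tested and a threshold of 0.1. Genotypes were compared within a day on its 6 libraries. Changes between days, and their differences between genotypes, came from 1 fit over 18 libraries. CPM values use the scaling over 18 libraries. DESeq2 1.42.0, limma 3.58.1 (voom), other scalings, no filter, lengths as offsets and each library left out were alternatives. The code was tested on simulated data.

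Symbols and positions came from GENCODE 44 (GRCh38), which matched 35051 of 35168 identifiers; the other 117 held 0.238% of counts. Named were all 13 mitochondrial mRNAs; for nuclear members, up to 6 called per direction and comparison with the largest change and a mean of at least 1 CPM, isoform sets and central subunits; and up to 3 genes per other list and comparison by adjusted p. The members and all lists were chosen with earlier results of these data known. Readthrough genes and near-identical copies are uncertain, because the authors' counting could split their reads. No 2 replicates held identical values.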

Additional observations from a re-analysis of the deposited data

Results flagged for a closer look

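The change between days differed between the genotypes, by the test of the difference itself (edgeR's quasi-likelihood test with Benjamini-Hochberg adjustment), for 1 member from D0 to D16 and for 13 members from D16 to D30. From D0 to D16 NDUFS8 had a difference of 0.54 on the log2 scale, the mutant falling less than WT. From D16 to D30 the differences of the complex I subunits were −0.77 for NDUFS3, −0.72 for NDUFS1, −0.71 for NDUFAB1, −0.62 for NDUFB2 and −0.52 for NDUFS8. Those of complexes II and III were −0.60 for SDHA, −0.59 for SDHB, −0.78 for UQCRC1 and −0.68 for UQCRFS1. Those of complexes IV and V were −0.72 for COX7B, −0.72 for ATP5PO, −0.63 for ATP5F1B and −0.57 for ATP5F1C. The erythroid markers were higher in mutant D30 libraries and the eosinophil, basophil and mast cell markers lower in mutant D16 libraries, and their part in these differences was not tested.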

How the results depend on the processing

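Nuclear members called at D16 numbered 7 at an adjusted p under 0.05, where 1226 of 14528 genes were higher and 1647 lower. With 1 library left out they numbered 2 to 35, where 997 to 2871 of all genes were higher and 1453 to 2907 lower. At D0 they numbered 1 by DESeq2, where 251 of 14719 genes were higher and 349 lower. With 1 library left out they numbered 0 to 2, where 38 to 137 of all genes were higher and 78 to 256 lower. At D30 they numbered 1 at an adjusted p under 0.05, where 1002 of 14263 genes were higher and 799 lower. In the fit over 18 libraries they numbered 8, where 2539 of 16829 genes were higher and 2353 lower. They numbered 1 to 3 with 1 library left out, where 824 to 1625 of all genes were higher and 605 to 1333 lower. Mitochondrial mRNAs called at D16 numbered 0 in the fit over 18 libraries, where 2258 of 16829 genes were higher and 1990 lower. They numbered 3 by DESeq2 (1864 and 2139 of 14528 genes), 2 by limma (1944 and 2190) and 2 with no filter (2011 and 2255 of 21660). With 1 library left out they numbered 1 to 3, beside the D16 counts of all genes given above. At D30 they numbered 0 to 5, the 5 without mutant replicate 3, where 1232 of 14631 genes were higher and 914 lower. For WT from D16 to D30 leaving out 1 library gave 3 to 5 mitochondrial calls. Of all genes, 4906 to 5323 were then higher and 5250 to 5736 lower. The difference of the D0 to D16 changes gave 0 nuclear calls at an adjusted p under 0.05, with no filter or with RLE scaling. All genes gave 313 higher and 349 lower, 624 and 541, and 590 and 702 in these runs. The same difference gave 2 nuclear calls by DESeq2 (831 and 971 genes) or in a fit on the groups compared (984 and 1077). With 1 library left out it gave 0 to 2, where 295 to 1262 of all genes were higher and 307 to 945 lower. The difference of the D16 to D30 changes gave 8 nuclear calls at an adjusted p under 0.05, where 1232 of 16829 genes were higher and 1137 lower. With 1 library left out it gave 8 to 28, where 1260 to 1961 of all genes were higher and 1176 to 2266 lower. Its mitochondrial calls numbered 0 to 1. The mutant's alternatives for changes between days were chosen after seeing the data. Its mitochondrial calls from D0 to D16 numbered 7 in a fit on the groups compared, where 6003 of 15487 genes were higher and 6136 lower. Those from D16 to D30 numbered 3 to 10 with 1 library left out. Of all genes, 5412 to 5784 were then higher and 5568 to 5918 lower. The causes were not tested. With lengths as offsets NDUFA9 had −0.64 in WT and −1.08 in the mutant from D16 to D30.

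As a share of TPM in place of counts, the mitochondrial mRNAs took 4.08% in WT D0, 4.44% in mutant D0, 5.34% in WT D16, 4.66% in mutant D16, 4.65% in WT D30 and 2.95% in mutant D30. The nuclear subunits took 1.51%, 1.53%, 1.49%, 1.75%, 1.22% and 0.90% in the same order. The median of all genes moved by at most 0.0705 on the log2 scale under any setting.

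Replicate numbers are shared between genotypes. The correlations given here are not of expression levels. They are of each library's deviations in log2 CPM from the mean of its own group, over the genes that passed the filter. The deviations within a group cancel out, so the values for same and other numbers are not independent. Same-numbered libraries correlated in these deviations at 0.17, 0.085 and 0.14 at D0, 0.089, 0.14 and 0.25 at D16, and 0.11, −0.024 and 0.20 at D30. At D0 and D16 every library correlated best with its own number in the other genotype, other numbers giving −0.12 to 0.0078 and −0.16 to 0.031. At D30 other numbers gave −0.28 to 0.18, and the main fits did not take the numbers as pairs. The calls at D0 and D16 depend on this choice. With a replicate block, 16 nuclear and 2 mitochondrial members were higher and 0 lower at D0, where 889 of 14719 genes were higher and 829 lower. At D16 19 nuclear members were higher and 4 lower (23 in all) and 7 mitochondrial ones lower, where 2657 of 14528 genes were higher and 2747 lower. At D30 not every library correlated best with its own number.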
